A study of Homo sapiens with 24 samples.

Results

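The genes described here build or hold the seal between epithelial cells: 9 genes of the tight junction and of the adherens junction below it, chosen by symbol in the deposited table of 60617 genes, of which 26043 carried a symbol. They are the claudin genes CLDN3, CLDN4, CLDN7 and CLDN12, the genes of the other membrane proteins OCLN and F11R, the scaffold genes TJP1 and TJP3, and CDH1, which encodes E-cadherin. Each symbol was found in 1 row, and 8 of the 9 genes had enough counts to be tested. The ninth, CDH1, had almost none in any group, so that the phrase E-cadherin loss describes a state of all 24 libraries and not a change between them.

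The RNA came from SKBR3, a human breast carcinoma line in which ERBB2, the gene of the receptor HER2, is amplified. There were 3 groups of 8 libraries: control cells given no treatment, cells given Herceptin, which is trastuzumab, a monoclonal antibody against HER2, and cells given ApoTras, a biosimilar of Herceptin. The labels' protocols state a seeding density of 6500 cells per cm2, serum at 10%, buffered saline as the vehicle of both antibodies and RNA extraction on day 7. A dose of 4 µg/ml stands beside Herceptin and does not clearly cover the biosimilar. No vehicle group, unrelated antibody or other line is labelled, so each comparison with control holds for 1 line and for the antibody together with its buffer. The labels state 8 replicates per group set up on day 0 without saying that they were independent cultures, so the p-values reflect the variation among the libraries, part or all of which may be technical.

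Tight junctions are strands of claudins and occludin in the membranes of neighbouring cells, tied to the actin skeleton by the ZO scaffold proteins on the inner face. Claudins decide which ions and solutes may pass between cells, junctional adhesion molecules help to place the strands, and E-cadherin in the adherens junction holds the cells together through catenins. In breast epithelium these junctions mark luminal cells. SKBR3 cells are known for lacking E-cadherin protein and have been described as carrying a homozygous deletion in CDH1.

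Library totals were 9116591 to 10759115 expected counts in control, 10747837 to 12260086 under Herceptin and 9070186 to 11880165 under the biosimilar. Levels are given as CPM, which are counts divided by a library's total, scaled with TMM factors and set to a common base. Markers of luminal breast carcinoma were high in every group, with control means of 4174 CPM for ERBB2, 5070 for the keratin gene KRT8 and 248.3 for EPCAM. Biosimilar replicate 6 stood apart from the other libraries. Across the 13536 genes tested, its deviation from the group mean fell with gene length (Spearman rho -0.482 across genes, which are not independent replicates), whereas the other 23 libraries ranged from -0.204 to 0.296. The log2 fold changes themselves rose with length, with rho 0.15 for Herceptin and 0.22 for the biosimilar against control. For biosimilar against Herceptin rho was 0.25. Calls of named genes that change with this trend removed are given beside the gene.

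Promoters are shown first for CLDN4, OCLN and TJP1, which rose with both antibodies, and for CLDN7, which did not. RefSeq windows of 300 bases (GRCh38.p14, 250 bases before and 50 after an annotated start site, written 5′ to 3′ on the gene's strand) were matched for 7 of the 9 genes. Capitals mark CAGGTG or CACCTG, the E-box bound by SNAI and ZEB repressors. For a gene with several windows, the printed window is that with the most E-boxes. The windows are chr7:73830746-73831045 on the plus strand for CLDN4, chr17:7262429-7262728 on the minus strand for CLDN7, chr5:69492540-69492839 on the plus strand for OCLN and chr15:29969000-29969299 on the minus strand for TJP1.
CLDN4: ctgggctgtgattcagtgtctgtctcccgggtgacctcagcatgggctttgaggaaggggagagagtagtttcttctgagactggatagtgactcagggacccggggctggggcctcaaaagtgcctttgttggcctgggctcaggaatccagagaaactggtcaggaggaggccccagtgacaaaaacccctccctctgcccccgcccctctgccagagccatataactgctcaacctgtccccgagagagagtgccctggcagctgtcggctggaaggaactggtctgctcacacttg
CLDN7: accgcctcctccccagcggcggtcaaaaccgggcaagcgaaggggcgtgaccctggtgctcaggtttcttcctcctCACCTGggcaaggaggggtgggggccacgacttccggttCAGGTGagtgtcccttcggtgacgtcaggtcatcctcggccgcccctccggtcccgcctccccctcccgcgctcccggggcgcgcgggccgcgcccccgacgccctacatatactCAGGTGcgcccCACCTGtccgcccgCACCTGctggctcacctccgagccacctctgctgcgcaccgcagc
OCLN: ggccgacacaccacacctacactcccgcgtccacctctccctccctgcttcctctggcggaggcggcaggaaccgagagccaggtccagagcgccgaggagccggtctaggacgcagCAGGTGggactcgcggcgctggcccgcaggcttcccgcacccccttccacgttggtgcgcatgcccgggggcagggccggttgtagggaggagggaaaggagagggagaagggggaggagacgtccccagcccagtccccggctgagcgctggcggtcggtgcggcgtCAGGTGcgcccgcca
TJP1: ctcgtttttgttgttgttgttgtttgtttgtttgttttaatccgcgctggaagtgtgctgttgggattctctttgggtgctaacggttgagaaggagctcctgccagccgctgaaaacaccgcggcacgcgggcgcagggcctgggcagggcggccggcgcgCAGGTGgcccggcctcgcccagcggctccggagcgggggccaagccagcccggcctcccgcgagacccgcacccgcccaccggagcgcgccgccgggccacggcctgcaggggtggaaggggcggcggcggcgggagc

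The CLDN7 window held 5 E-boxes, at -174, -135, -20, -9 and 6 from the start site, the OCLN window 2, the TJP1 window 1 and the CLDN4 window 0. OCLN has another window with 1, CLDN7 another with 0, and TJP1 another 3 with 0. CLDN3 had 1 E-box in its window, TJP3 0 and 1 in its pair of windows, and CLDN12 0. Of 35116 RefSeq promoter windows, 20.6% held this E-box on either strand. GGGCGG or CCGCCC, the GC box of SP1-like factors, was found 6 times in the CLDN3 window and 1 time in that of CLDN4. The printed windows of CLDN7, OCLN and TJP1 held it 2, 0 and 3 times, and 45.0% of all windows held it. The Grainyhead motif AACCGGTT was in 0 of the members' windows and in 0.134% of all windows. These are matches of letters and say nothing of binding, and a link between E-boxes and the changes was not tested.

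Levels of the members differed widely, and they were compared between genes as control CPM per kilobase of the deposited effective length. CLDN4 was highest at 268.6 ± 10.6 CPM per kb (SD, n = 8) and CLDN7 next at 210.2 ± 8.12. F11R had 45.4 ± 1.21 and CLDN3 42.1 ± 4.13 CPM per kb, a pair whose ranges overlapped in control, with F11R above CLDN3 in 5 of 8 libraries. OCLN had 24.9 ± 0.845, TJP1 17.9 ± 0.574, TJP3 14.9 ± 0.996 and CLDN12 12.5 ± 0.480 CPM per kb. CDH1 stood last at 0.0133 ± 0.0246. Every other pair of neighbours in this order was separated in all 8 control libraries. With the antibodies the order was the same, F11R then lay above CLDN3 in 8 of 8 libraries of either group, and the ranges of TJP3 and CLDN12 overlapped. The order of CLDN4 and CLDN7 depends on the length used: per kilobase of the longest transcript or of the union of exons CLDN7 came first, and with the union of exons TJP3 came before TJP1.

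**Figure D1:**
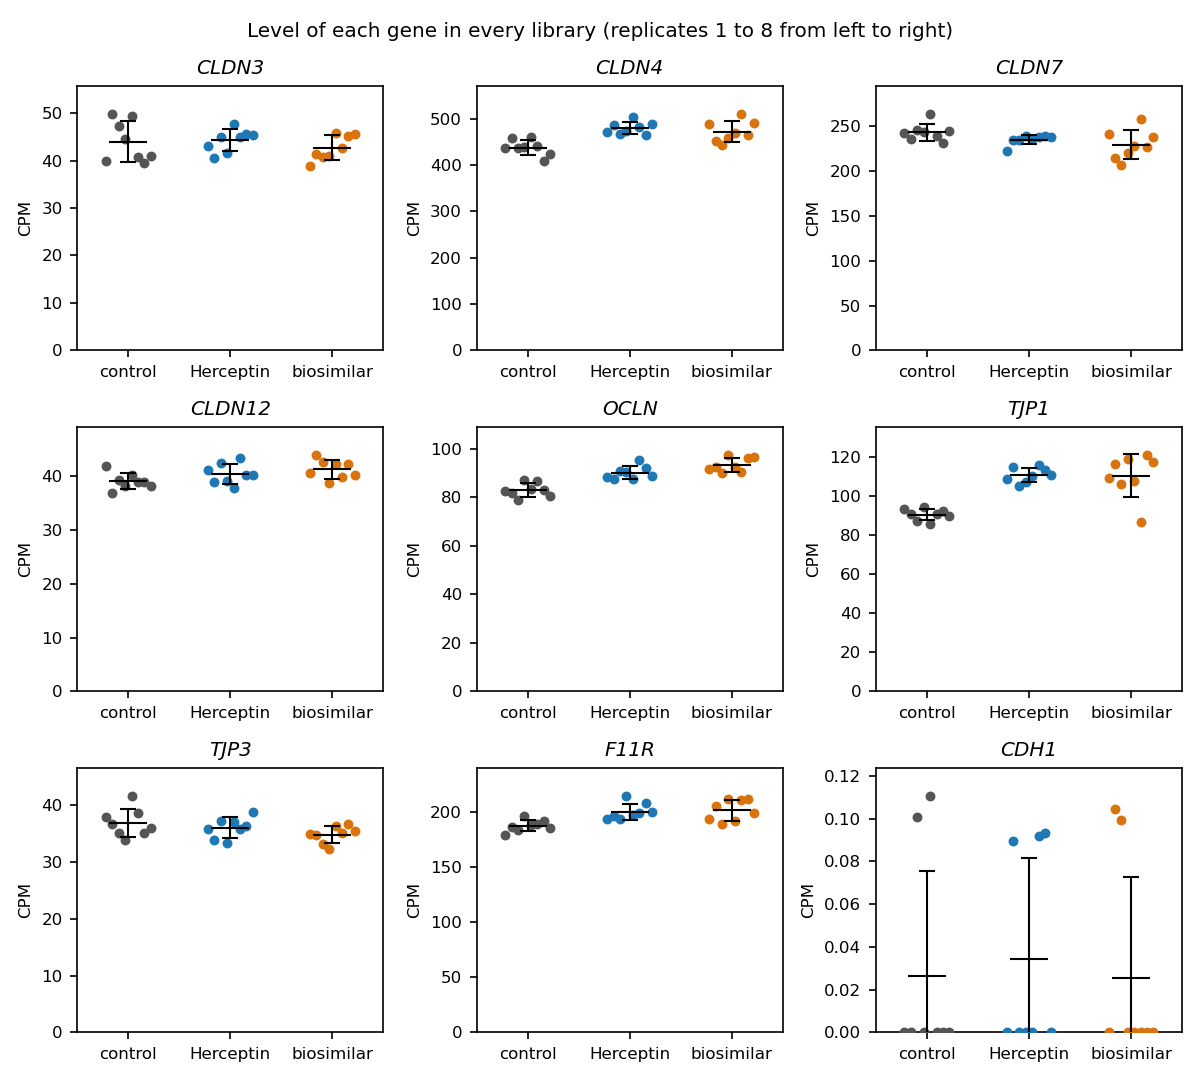
CPM of each of the 9 genes in every library, with replicates 1 to 8 from left to right in each group; the horizontal mark is the mean and the bar the SD of 8 libraries, and each axis starts at 0 with its own scale. TJP1 and OCLN lay higher with either antibody apart from TJP1 in biosimilar replicate 6 at 86.88 CPM, and CDH1 stayed at or below 1 count in all libraries.

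Herceptin was followed by small rises in 4 of the 8 tested members, CLDN4, OCLN, F11R and TJP1, and by no called fall. With the biosimilar the same 4 genes rose and CLDN7 fell, a call that several alternatives below lose. A call is an adjusted p under 0.05 in edgeR's quasi-likelihood test with Benjamini-Hochberg adjustment over all 13536 genes, and in that fit 22.7% of all genes were called higher and 23.8% lower under Herceptin, 23.4% and 24.6% under the biosimilar. Called in either direction were 46.4% of all genes under Herceptin and 48.0% under the biosimilar. The share of members called higher was thus above that of all genes. It rests on 8 genes chosen with earlier results of these data known, so it is not a test of the set. The F11R calls are also lost under alternatives given below. The median log2 fold change of the tested members was 0.07 under Herceptin and 0.09 under the biosimilar, against -0.00 for all genes in each comparison. Both comparisons share the control libraries and are given side by side. In these bulk libraries, more RNA per cell and more cells with the RNA cannot be told apart.

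The claudins did not move as a family. CLDN4, on chromosome 7 from 73799542 to 73832693 (GRCh38, GENCODE 29, plus strand, protein-coding), encodes a barrier claudin that also binds the enterotoxin of Clostridium perfringens. Its level ran from 408.6 to 461.4 CPM in control (median 437.7), from 465.3 to 504.8 under Herceptin (median 477.8) and from 442.7 to 509.8 under the biosimilar (median 468.0). All 8 Herceptin libraries and 5 of 8 biosimilar libraries thus lay above the highest control. The means were 438.2 ± 17.2, 479.9 ± 13.3 and 472.3 ± 22.5 CPM (SD, n = 8), a rise by 9.53% under Herceptin (log2 0.13, SE 0.0288, edgeR adjusted p = 2.23e-04) and by 7.80% under the biosimilar (log2 0.11, SE 0.0289, adjusted p = 0.00185).

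CLDN7, on chromosome 17 from 7259903 to 7263983 (minus strand), encodes a claudin also found along the lateral membrane, where it binds EPCAM. It had 231.1 to 263.0 CPM in control (median 242.6), 222.6 to 238.7 under Herceptin (median 236.5) and 207.0 to 257.8 under the biosimilar (median 227.2). The groups overlapped, with 5 biosimilar libraries below the lowest control. The log2 fold change was -0.05 under Herceptin (SE 0.0329, edgeR adjusted p = 0.233) and -0.08 under the biosimilar (SE 0.0330, adjusted p = 0.0337), where its mean fell by 5.65%. This call is fragile: it was lost without any 1 of control replicates 3 and 5 and biosimilar replicates 2, 3, 4, 5 and 7, and with the length trend removed the log2 value was -0.02 (adjusted p = 0.582, the highest of its alternatives, which ran down to 0.00215).

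The ratio of CLDN4 to CLDN7 counts within a library needs no scaling between libraries. It was 1.80 ± 0.0668 in control (SD, n = 8, range 1.73 to 1.94), 2.04 ± 0.0691 under Herceptin (1.95 to 2.15) and 2.06 ± 0.0495 under the biosimilar (1.98 to 2.14). No library of either antibody group had a ratio as low as the highest control. The ratio describes unequal change of the pair and was not tested.

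CLDN3 and CLDN12 passed no test. CLDN3 lies 29.3 kb from CLDN4 on chromosome 7 (73768997 to 73770270, minus strand) and encodes another enterotoxin-binding claudin. It had 43.98 ± 4.31 CPM in control, 44.25 ± 2.35 under Herceptin and 42.65 ± 2.64 under the biosimilar, and its log2 fold change was 0.01 under Herceptin (SE 0.0485, edgeR adjusted p = 0.895) and -0.04 under the biosimilar (SE 0.0494, adjusted p = 0.502). CLDN12 (chromosome 7, 90383721 to 90513402, plus strand) encodes a claudin that lacks the tail by which others bind ZO proteins. Its level was 38.97 ± 1.5 CPM in control, 40.33 ± 1.85 under Herceptin and 41.24 ± 1.74 under the biosimilar, and the log2 fold changes were 0.05 (SE 0.0382, adjusted p = 0.292) and 0.08 (SE 0.0386, adjusted p = 0.0775).

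Of 24 claudin genes in the table, 8 were tested, 12 had a count but too few to test, and CLDN10, CLDN22, CLDN25 and CLDN34 were at 0 in all 24 libraries. CLDN4 took 54.6% of all claudin counts in control, 56.8% under Herceptin and 56.9% under the biosimilar, and CLDN7 took 30.3%, 27.8% and 27.6%. Among the 8 tested claudins, 2 rose with each antibody, CLDN4 and CLDN1. CLDN1, which encodes a main barrier claudin of skin, had the larger change, from 21.29 ± 2.45 CPM in control to 29.23 ± 2.16 under Herceptin (log2 0.45, SE 0.0593, edgeR adjusted p = 3.41e-08) and 28.13 ± 2.25 under the biosimilar (log2 0.40, SE 0.0606, adjusted p = 7.14e-07). CLDN9, CLDN15 and CLDN23 had control means of 1.15, 5.88 and 8.57 CPM and log2 fold changes between -0.16 and 0.17, none of which passed. The median of the tested claudins was 0.06 under Herceptin and 0.04 under the biosimilar.

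**Figure D2:**
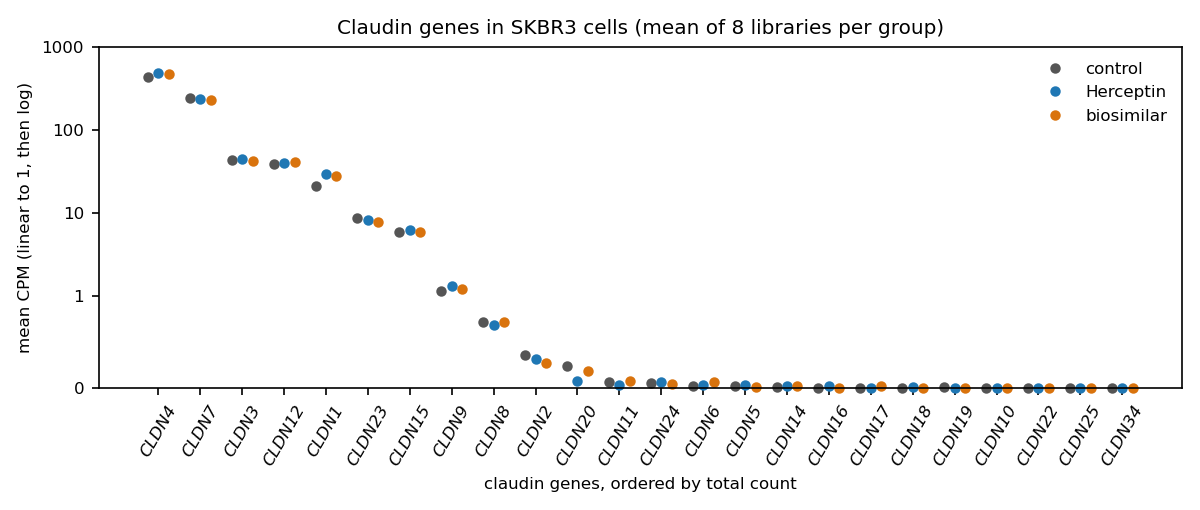
Mean CPM (n = 8 libraries per group) of the 24 claudin genes, ordered by total count; the axis is linear up to 1 CPM and logarithmic above. CLDN4 and CLDN7 had the most counts per library, CLDN1 was higher with both antibodies, and the genes at the right were at or near 0.

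OCLN encodes occludin, a membrane protein with a pair of outer loops in the strands (chromosome 5, 69492292 to 69558104, plus strand), and it rose with both antibodies. It had 79.06 to 87.12 CPM in control (median 82.8), 87.37 to 95.34 under Herceptin (median 89.6) and 89.99 to 97.30 under the biosimilar (median 92.5). All 8 libraries of each antibody lay above the highest control, the Herceptin group by a narrow margin. The means of 83.01 ± 2.81, 90.07 ± 2.70 and 93.42 ± 2.89 CPM (SD, n = 8) gave a rise by 8.52% under Herceptin (log2 0.12, SE 0.0296, edgeR adjusted p = 0.00107) and by 12.5% under the biosimilar (log2 0.17, SE 0.0298, adjusted p = 8.06e-06). OCLN counts were not whole in 87.5% of libraries, since RSEM shared reads with similar sequence. Its pseudogene OCLNP1 was given 0 to 13.35 counts per library against 756.25 to 1131.47 for OCLN.

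F11R encodes JAM-A, an adhesion molecule with immunoglobulin domains that binds its like on the next cell (chromosome 1, 160995211 to 161021348, minus strand). It had 179.4 to 195.9 CPM in control (median 187.5), 193.4 to 214.1 under Herceptin (median 198.0) and 188.7 to 212.0 under the biosimilar (median 201.9). Libraries above the highest control numbered 6 under Herceptin and 5 under the biosimilar. The rise was 6.75% under Herceptin (log2 0.09, SE 0.0295, edgeR adjusted p = 0.00793) and 7.47% under the biosimilar (log2 0.10, SE 0.0296, adjusted p = 0.00349). Its counts were not whole in all 24 libraries, and the gene ENSG00000270149 overlaps it on the same strand (160997957 to 161038962). That gene had 31.33 ± 4.47 CPM in control, 27.10 ± 4.38 under Herceptin and 26.33 ± 4.30 under the biosimilar. For the sum of the pair, the log2 fold changes were 0.05 (adjusted p = 0.0967) and 0.06 (adjusted p = 0.0740), so the call was lost for the sum and F11R is uncertain. With the length trend removed the values were 0.05 (adjusted p = 0.159) and 0.05 (adjusted p = 0.195). Over all alternatives the adjusted p of F11R ran from 0.00134 to 0.159 under Herceptin and from 0.000517 to 0.195 under the biosimilar.

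Other membrane proteins of the junction moved in both directions. Of 13 tested genes on that list, OCLN and F11R included, 5 rose with each antibody (OCLN, F11R, MARVELD3 and IGSF5 among them) and 2 fell (CXADR and LSR), with a median log2 fold change of -0.01 in either comparison. With the length trend removed, 4 rose with each antibody and 1 fell under Herceptin and 2 under the biosimilar, and LSR was not among them. MARVELD3, a relative of occludin, went from 57.18 ± 3.34 to 63.7 ± 3.4 and 63.29 ± 2.13 CPM. IGSF5 had the largest fold change of the list at a low level, 1.04 ± 0.267 CPM in control, 2.26 ± 0.477 under Herceptin and 1.87 ± 0.429 under the biosimilar. LSR, whose product marks the corners where 3 cells meet, went from 96.74 ± 5.34 to 89.85 ± 2.21 and 90.65 ± 3.37 CPM. Its calls were lost with the length trend removed (edgeR adjusted p = 0.0505 under Herceptin and 0.191 under the biosimilar), and the latter also with no filter and without control replicate 4. CXADR, the gene of the coxsackievirus and adenovirus receptor, went from 47.63 ± 3.00 to 43.58 ± 1.36 and 44.09 ± 2.41 CPM, and its biosimilar call was lost with no filter and without control replicate 4 (adjusted p up to 0.0667).

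TJP1, the gene of the scaffold ZO-1 that binds claudins, occludin, JAM-A and actin, had the largest change of the members. It lies on chromosome 15 from 29699367 to 29968865 (minus strand) and had 85.85 to 94.27 CPM in control (median 90.7) and 105.2 to 115.7 under Herceptin (median 110.4). With the biosimilar 7 libraries had 106.2 to 120.8 CPM, and replicate 6 had 86.88, within the control range. All 8 Herceptin and 7 of 8 biosimilar libraries thus lay above every control library. The mean went from 90.53 ± 2.90 to 110.8 ± 3.73 CPM under Herceptin (SD, n = 8), a rise by 22.3% (log2 0.29, SE 0.0430, edgeR adjusted p = 6.94e-07). It was 110.5 ± 11 CPM under the biosimilar, a rise by 21.9% (log2 0.29, SE 0.0434, adjusted p = 9.97e-07). Without biosimilar replicate 6 the latter log2 value was 0.33 (adjusted p = 1.89e-11), and with the length trend removed the log2 values were 0.23 (adjusted p = 1.55e-07) and 0.21 (adjusted p = 1.52e-06). Every alternative kept both calls, with adjusted p from 1.26e-14 to 3.74e-06 under Herceptin and from 9.49e-14 to 1.82e-05 under the biosimilar.

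TJP3, the gene of the related scaffold ZO-3 (chromosome 19, 3708109 to 3750813, plus strand), passed no test. It had 36.84 ± 2.46 CPM in control, 36.04 ± 1.79 under Herceptin and 34.81 ± 1.48 under the biosimilar, and its log2 fold change was -0.03 under Herceptin (SE 0.0424, edgeR adjusted p = 0.599) and -0.08 under the biosimilar (SE 0.0433, adjusted p = 0.128). The ratio of TJP1 to TJP3 counts was 2.47 ± 0.207 in control (2.07 to 2.78), 3.08 ± 0.196 under Herceptin (2.83 to 3.39) and 3.18 ± 0.350 under the biosimilar. Biosimilar replicate 6 had the lowest ratio of its group at 2.48. As with the claudin pair, the ratio is a description.

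Among 28 tested scaffold and polarity genes, TJP1 and TJP3 included, 13 rose and 2 fell under Herceptin, with a median log2 fold change of 0.13. Under the biosimilar 12 rose and 4 fell, with a median of 0.14. Those that fell were PARD6G and LIN7C with both antibodies, and YBX3 and SCRIB under the biosimilar. With the length trend removed, 12 rose and 3 fell under Herceptin, and 11 rose and 6 fell under the biosimilar. Of all genes in the main fit, 22.7% were called higher and 23.8% lower under Herceptin, 23.4% and 24.6% under the biosimilar. PATJ, a scaffold of the Crumbs polarity complex, went from 113.7 ± 4.57 to 149.5 ± 4.59 and 149.1 ± 9.79 CPM, log2 0.39 in each (SE 0.0342 and 0.0344, edgeR adjusted p = 1.6e-12 and 2.65e-12). CGN, the gene of cingulin, which links ZO proteins to myosin, went from 65.04 ± 2.52 to 81.94 ± 4.02 and 85.12 ± 5.97 CPM. AMOTL2, an angiomotin relative, had 101.1 ± 7.47, 128.1 ± 6.18 and 124.9 ± 5.5 CPM. PARD6G, a subunit of the PAR polarity complex, had log2 fold changes of -0.57 (SE 0.137, adjusted p = 6.97e-04) and -0.62 (SE 0.140, adjusted p = 2.94e-04). LIN7C had -0.15 and -0.14, and under the biosimilar YBX3 had -0.11 and SCRIB -0.09. The YBX3 call was lost with the length trend removed (adjusted p = 0.0903), and a YBX3 call under Herceptin was gained without control replicate 1 and without Herceptin replicate 8 (adjusted p from 0.0274). The SCRIB call was lost with no filter, with libraries thinned to the smallest total and without control replicate 2 (adjusted p up to 0.071). In biosimilar replicate 6, PATJ had 130.4 CPM, the lowest of its group.

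**Figure D3:**
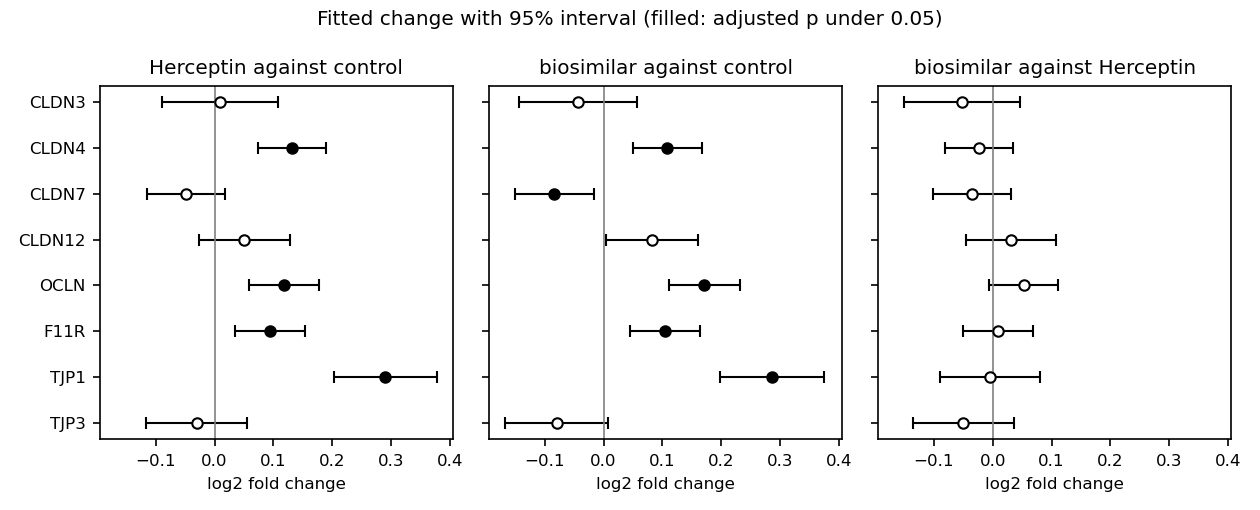
Fitted log2 fold change with its 95% interval for the 8 tested members in the 3 comparisons; filled points have an edgeR adjusted p under 0.05. TJP1 had the largest change with either antibody at 0.29, and in the comparison of both antibodies every interval included 0.

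**Figure D4:**
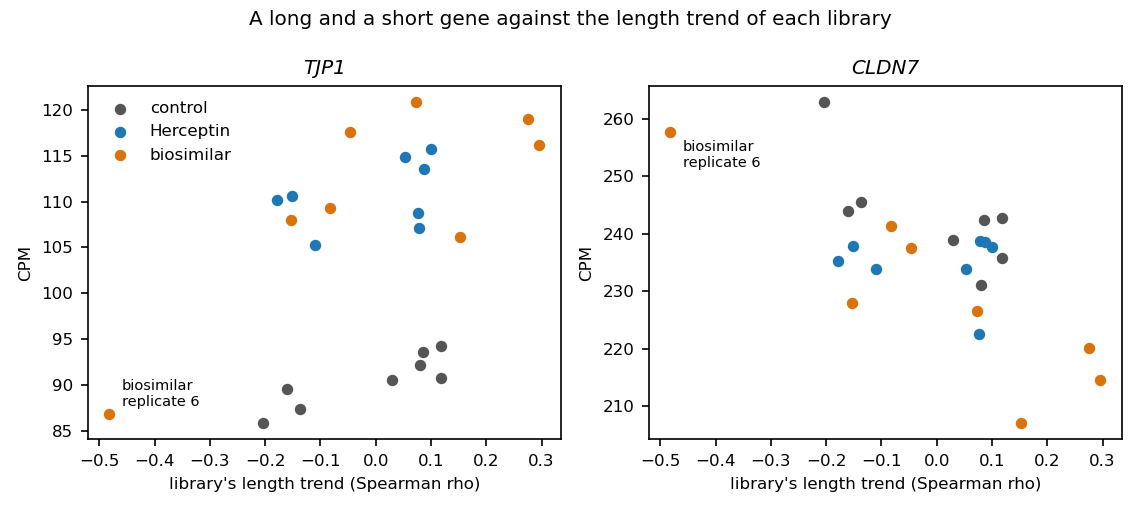
CPM of TJP1, a long gene, and CLDN7, a short one, in each of the 24 libraries against the Spearman rho between a library's deviation from its group mean and gene length. Biosimilar replicate 6, at -0.482, had the lowest TJP1 level of the biosimilar group, 86.88 CPM, and its highest CLDN7 level, 257.8 CPM; the axes do not start at 0.

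Between biosimilar and Herceptin no member was called, and of all genes 0.0% were called (0 of 13536 in edgeR, 722 at an unadjusted p under 0.05, 8 in DESeq2 and 0 in limma-voom). The log2 differences of the members ran from -0.05 for CLDN3 to 0.05 for OCLN. Their 95% intervals together spanned -0.15 to 0.11, which is a fold of 0.901 to 1.08. OCLN had the smallest unadjusted p, 0.0798 (edgeR adjusted p = 0.939), with 8 of 8 biosimilar libraries above the Herceptin median. With the length trend removed, the log2 differences ran from -0.05 for TJP3 to 0.04 for OCLN. The intervals bound the difference of each gene and do not show that the antibodies act alike, and the doses may have differed.

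The groups of the called members did not overlap for CLDN4, OCLN and TJP1 under Herceptin, 3 of 8 tested, where 8.95% of all genes lay wholly above control and 8.07% wholly below. For the biosimilar this held for OCLN, 1 of 8, where 7.2% of all genes lay wholly above and 7.72% wholly below. Between biosimilar and Herceptin the groups overlapped for all 8 tested members, and 0.0148% of all genes lay wholly above and 0.0148% wholly below.

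CDH1 was close to absent. It lies on chromosome 16 from 68737225 to 68835548 (GRCh38, plus strand, protein-coding), and 17 of 24 libraries had 0 counts. The other 7 had 1 count each: control replicates 3 and 5, Herceptin replicates 2, 6 and 7, and biosimilar replicates 2 and 3. In all that is 7 of 253940740 counts, spread over all 3 groups. A count of 0 allows a level of up to 0.245 to 0.331 CPM, depending on the library (3 counts, covering counting error only). No change with an antibody was detectable at this depth.

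The neighbouring cadherin gene had no counts either. CDH3, which encodes P-cadherin and ends 14.6 kb before CDH1 (68636189 to 68722616), had 0 counts in all 24 libraries. The nearest genes with counts in every library were ZFP90 on one side (68530090 to 68576072), at 4.86 ± 0.810 CPM in control, and TANGO6 on the other (68843604 to 69085180), at 4.74 ± 0.961 CPM. Of 11 annotated genes in the 267.5 kb between ZFP90 and TANGO6, CDH1 had 7 counts, ENSG00000275383 had 1 and the other 9 had 0. Only CDH1 and CDH3 among the 11 are protein-coding. Farther out, UTP4 had 74.46 ± 4.23 and PRMT7 30.23 ± 2.23 CPM in control, whereas HAS3 had 0.283 ± 0.141. RNA counts cannot tell a deletion from silencing here, and neither was tested.

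**Figure D5:**
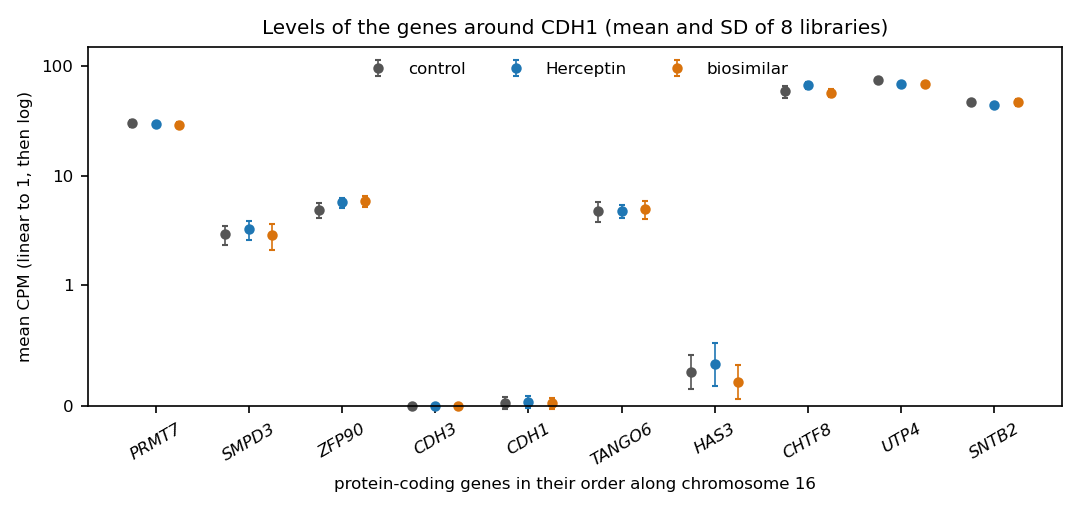
Mean CPM with SD (n = 8 libraries per group) of the protein-coding genes around CDH1 in their order along chromosome 16; the axis is linear up to 1 CPM and logarithmic above. CDH3 was at 0 and CDH1 near 0 in all 3 groups, between ZFP90 and TANGO6, which had means of 4.74 to 5.83 CPM.

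Other cadherins moved in both directions. Of 12 listed cadherin genes, which are only part of the family, 3 were tested and CDH3 and CDH17 were at 0 in every library. CDH5, the gene of VE-cadherin, known from endothelium, rose from 34.76 ± 2.38 CPM to 47.15 ± 3.71 under Herceptin (log2 0.44, SE 0.0479, edgeR adjusted p = 5.08e-10) and 45.08 ± 2.55 under the biosimilar (log2 0.38, SE 0.0487, adjusted p = 2.82e-08). CDH24 fell from 17.79 ± 0.700 to 13.67 ± 1.16 and 13.38 ± 1.22 CPM (log2 -0.38 and -0.41). CDH4 had 0.887 ± 0.366 CPM in control and passed no test. CDH2, the gene of N-cadherin, had at most 11 counts in a library, too few to test. Its level was 0.250 ± 0.120 CPM in control, 0.595 ± 0.231 under Herceptin and 0.585 ± 0.222 under the biosimilar. Of 8 endothelial markers, CDH5 and ESAM were tested, and PECAM1, TEK and EMCN had at most 1 count in a library. The summed level of the 8 markers was 50.3 to 57.1 CPM in control, 57.4 to 68.8 under Herceptin and 59.0 to 67.4 under the biosimilar, and ESAM did not pass (log2 -0.01 in each).

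Most of the 20 listed partner genes of the adherens junction, cell-surface nectins included, had enough counts to test, and they moved in both directions. CTNNA2, CTNNA3 and NECTIN3 had too few. Of 17 tested adherens junction partner genes, 9 rose and 5 fell under Herceptin, with a median of 0.12. Under the biosimilar 9 rose and 3 fell, with a median of 0.13. With the length trend removed, 8 rose and 5 fell under Herceptin, and 8 rose and 4 fell under the biosimilar. JUP, the gene of plakoglobin, which also serves desmosomes, went from 1101 ± 70.8 to 1513 ± 42.3 and 1533 ± 71.0 CPM. Its log2 fold changes were 0.46 (SE 0.0320, edgeR adjusted p = 3.58e-15) and in turn 0.48 (SE 0.0320, adjusted p = 1.23e-15). CTNND1, the gene of p120-catenin, which keeps cadherins at the membrane, rose from 438.0 ± 18.1 to 538.3 ± 14 and 545.8 ± 27.7 CPM. LIMA1, which encodes an actin-bundling protein, rose from 173.1 ± 7.15 to 231.1 ± 3.66 and 234.4 ± 9.91 CPM. CTNNB1, the gene of β-catenin, had 290.8 CPM in control and log2 fold changes of -0.01 and -0.02, neither called. NECTIN1, CTNNAL1 and AJUBA fell with both antibodies, and CTNND2 and ARVCF under Herceptin. The ARVCF call was lost in 9 of 36 alternatives, with no filter and without control replicate 2, 3 or 5 or Herceptin replicate 2, 5, 6, 7 or 8 (edgeR adjusted p up to 0.0839). The biosimilar call of AJUBA was lost with no filter and without control replicate 5 (adjusted p up to 0.0671), and CTNND2 gained one with the length trend removed (adjusted p = 0.0226).

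Of 12 genes known to repress CDH1 in other cells, 4 were tested. ZEB1 had at most 2.45 counts in a library, ZEB2 at most 1, SNAI2 and TWIST1 at most 2, and TWIST2 and FOXC2 had 0 in every library. TCF3, the gene of the E proteins E12 and E47, fell from 64.05 ± 3.39 CPM to 53.15 ± 2.57 under Herceptin (log2 -0.27, SE 0.0392, edgeR adjusted p = 3.55e-07) and 50.95 ± 3.10 under the biosimilar (log2 -0.33, SE 0.0399, adjusted p = 6.9e-09). KLF8 rose from 31.73 ± 3.38 to 37.94 ± 2.53 and 38.29 ± 2.55 CPM (log2 0.26 and 0.27). SNAI1, at 2.68 ± 0.397 CPM in control, fell under Herceptin (log2 -0.51, SE 0.168, adjusted p = 0.0105) and had log2 -0.35 under the biosimilar (SE 0.168, adjusted p = 0.0829). TCF4 fell under Herceptin (log2 -0.31, adjusted p = 0.0241) and had -0.21 under the biosimilar (adjusted p = 0.14). The TCF4 call was lost without control replicate 7 and without Herceptin replicate 4 or 5 (adjusted p up to 0.086), and SNAI1 gained a call under the biosimilar without control replicate 1 (adjusted p = 0.0475).

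The listed epithelial factors and markers rose or passed no test, whereas some epithelial junction genes given above, such as NECTIN1 and LIN7C, fell. Of 13 tested epithelial transcription and splicing factors, 6 rose under Herceptin and 7 under the biosimilar, and 0 fell with either. EHF, an ETS factor of epithelia, went from 15.26 ± 1.93 to 22.87 ± 0.892 and 23.03 ± 2.43 CPM. KLF4 had log2 fold changes of 0.41 and 0.40, and GRHL1, a Grainyhead factor that regulates junction genes, 0.28 and 0.29. Of 12 simple epithelium markers, 8 rose under Herceptin, 7 under the biosimilar and 0 fell. SPINT1, ERBB3 and CD24 were among those that rose. Of all genes, 22.7% were called higher and 23.8% lower under Herceptin, 23.4% and 24.6% under the biosimilar. The lists were chosen with earlier results of these data known, so the shares are a description.

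Of 13 mesenchymal markers 2 were tested. FN1, the gene of fibronectin, rose from 149.9 ± 7.74 to 228.9 ± 6.05 CPM under Herceptin and 219.6 ± 26.3 under the biosimilar, and COL1A1 fell from 4.40 ± 0.504 to 3.47 ± 0.371 and 3.45 ± 0.227. VIM had at most 4 counts in a library, and SPARC and THY1 at most 2. The summed level of that list was 145.4 to 166.7 CPM in control, 223.6 to 243.8 under Herceptin and 161.2 to 241.7 under the biosimilar. Of 11 leukocyte markers, CD68 and CSF1R were tested and rose, with summed levels for the list of 47.3 to 57.9, 74.3 to 80.0 and 64.6 to 81.1 CPM. In 95.8% of libraries CD68 had a count that was not whole, so its value is uncertain. Counts of the luminal markers ERBB2 and KRT8 were not whole in 100% of libraries. PTPRC had at most 2 counts in a library, and MS4A1 and NKG7 had 0. VIM, PTPRC and, above, PECAM1 were thus at or near 0 in all groups, but they were named after their values were seen. Other genes of the same lists were expressed: FN1 and CDH5 as given, and CSF1R, CD68 and ESAM with control means of 33.0, 18.4 and 17.0 CPM. Whether other cell types were present was not tested.

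The genes most like each member over the 24 libraries were found by Pearson's r of log2 CPM among 9153 genes with a symbol and a mean of at least 10 CPM. They are given as a description, with r after the group means were subtracted beside it. TJP1 was close to DSP (r = 0.96, then 0.88), which encodes desmoplakin. CLDN4 was closest to KRT7 (0.93, then 0.84) and CLTB (0.90, then 0.80). OCLN followed PTPN12 (0.91, then 0.58) and SLC44A2 (0.91, then 0.66), and CLDN7 followed POLR2J (0.85, then 0.81) and RASSF1 (0.81, then 0.76). The closest gene was TMBIM6 for F11R (0.81, then 0.65), SDC1 for TJP3 (0.77, then 0.73) and INSIG2 for CLDN12 (0.74, then 0.64), and RAB1B was close to CLDN3 (0.71, then 0.73). Among the members themselves, OCLN and TJP1 had r = 0.82 (0.50 after subtraction), CLDN4 and CLDN7 0.16 (0.75), and CLDN7 and TJP1 -0.60 (-0.51). The points share libraries and depth, and biosimilar replicate 6 is among them. The length trends of the libraries were not removed before r was taken, and their part in these values was not tested.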

How the data were processed

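RNA was measured in 24 libraries. The deposited values are expected counts per gene, estimated by RSEM and so not always whole. Per the submitters' processing notes, FastQC, STAR and RSEM were used with GRCh38.p12. The kit, per the labels' protocols, was TruSeq Stranded mRNA, with paired reads of 126 bases. For the annotation release, trimming and strand setting, the sources used here give nothing. Among expected counts, 9.29% were not whole (tolerance 0.001).

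Expected counts were rounded, which moved a total by at most 4.6e-04%. Library pairs within a group differed beyond sampling noise (chi-square per degree of freedom 1.50 to 7.30), so none was taken for a repeat deposit of another; this does not show that they came from separate cultures. Genes passing filterByExpr (13536) were fitted in 1 model of 3 groups using edgeR 4.0.16 under R 4.3.3 with limma 3.58.1, TMM factors, the two-sided quasi-likelihood F test, a prior count of 0.125 and Benjamini-Hochberg adjustment at 0.05. The common biological coefficient of variation was 4.9%. Intervals of 95% use the model's standard error. Coordinates are from GENCODE release 29, which holds 96.6% of the rows. The fit was run on simulated counts with known changes. These had the same spread for all genes and no length trend, so they do not show how the fit behaves with such trends.

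The members and gene lists were chosen with earlier results of these data known. Named from each list were calls numbering 5 or fewer in a direction, otherwise the 3 smallest p, every tested claudin and cadherin, and the 2 genes most alike each member. Of these, 3 genes are not reported here. ZEB1, VIM and other untested genes, CTNNB1 and the neighbours of CDH1 were named after their values were seen. Alternatives were DESeq2 1.42.0, limma-voom, other factors and filters, a replicate block, thinning and leaving out each library. Added after seeing the data were library totals alone, union-of-exons length, removal of each library's length trend and F11R summed with the gene overlapping it.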

Additional observations from a re-analysis of the deposited data

Results flagged for a closer look

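In groups of 8 libraries, the gap between the highest or lowest library and its nearest neighbour was compared with the group's range (Dixon's 95% critical value for 8 values). This was done for 50 genes in 3 groups, and 9 of 150 sets passed, where chance gives about 1 in 20.

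CLDN7 was flagged in a pair of groups. Control replicate 5 had the highest level, 263.0 CPM, with the others at 231.1 to 245.5. Herceptin replicate 1 had the lowest level of CLDN7 in its group, 222.6 CPM, with the others at 233.8 to 238.7. TJP1 in biosimilar replicate 6 was lowest at 86.88 CPM, with the others at 106.2 to 120.8.

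The same library was lowest of the biosimilar group for FN1, at 156.6 CPM against 215.7 to 237.5, and for ERBB3, at 191.4 CPM against 211.3 to 227.7. Herceptin replicate 8 was highest for CSF1R, at 46.30 CPM against 41.73 to 43.33, and Herceptin replicate 5 for CTNND2, at 47.17 CPM against 39.70 to 43.15. Control replicate 1 was lowest for ESAM, at 15.06 CPM against 16.59 to 17.71, and control replicate 2 was highest for KLF8, at 38.89 CPM against 27.36 to 32.79.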

How the results depend on the processing

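Of 864 member values recomputed under alternatives, 847 stayed on their side of the threshold, 15 lost the call and 2 gained it. No called value changed sign (0 reversed), but values near 0 that passed no test did, for CLDN3 in both comparisons with control, CLDN7 under Herceptin, and TJP1 and F11R between the antibodies. Those lost were F11R and, with the biosimilar, CLDN7, and those gained were CLDN12 with the biosimilar. Of 4524 values of other named genes, 24 lost the call and 5 gained it, as given beside each gene except CLDN23, which gained one under the biosimilar without biosimilar replicate 1. The biosimilar's count of members called lower was 0 with upper-quartile factors, with no filter, with only the groups compared and with the length trend removed. Leaving out each library in turn gave 0 to 1 lower and 4 to 5 higher members with the biosimilar, and 4 higher and 0 lower with Herceptin. Over all genes, that gave 2917 to 3163 higher and 3072 to 3284 lower with Herceptin, and 3028 to 3294 and 3172 to 3363 with the biosimilar. For biosimilar against Herceptin, 1 gene was called higher and 11 lower with no filter, 8 lower in DESeq2 and 0 whichever library was left out. The cause was not tested. With the union of exons as length, 5 of 9 members kept their place in the order of levels. Calls of CLDN4, OCLN and TJP1 held under every alternative. Scaling moved the median of all genes by less than 0.01 on the log2 scale.

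Same-numbered libraries had correlations of their deviations from -0.174 to 0.327, with 13 of 24 over 0.1. Pairing was assumed only where all exceed 0.1, so the main fit has no replicate block. That 9 of 24 lay closest to their own number is a hint from the data, not the design. The length trends of control and Herceptin libraries also had the same sign at every replicate number. Biosimilar replicates 1, 3 and 6 had the opposite sign to both. Whether libraries of a number shared a factor was not tested. With the replicate block, 3193 genes were higher and 3391 lower with Herceptin, 3278 and 3457 with the biosimilar, and 14 lower for biosimilar against Herceptin. The block left the members' counts at 4 higher and 0 lower, and 4 and 1. Depth limits CDH1 and the 12 low claudins.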
